A study of Mus musculus with 8 samples.

Results

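Delta cells are the somatostatin-secreting endocrine cells of the pancreatic islet, and forskolin (FSK) is a plant diterpene that activates adenylyl cyclase directly. The FSK response of delta cells was read from 4 of the 54 columns of the deposited single nucleus RNA-seq table, namely the delta cell columns of untreated (CON) and FSK-treated islets in each of 2 genotypes. These columns were selected by their labels alone, as FSK minus CON within WT and within Med14S983A, a mouse in which the PKA phosphorylation site of the Mediator scaffold Med14 is replaced by alanine in every cell of the body. The islets were primary mouse islets kept in culture, the FSK exposure was 16 h in the study's description, and its dose is not in the labels. The Exendin-4 (Ex-4) columns of the same cells (10 nM, 16 h) were used as side values, and the beta and alpha cell columns of the same islets for comparison. Nuclei of about 100 islets were pooled for each condition, 8 sublibraries each held nuclei of all 6 conditions, and the table gives 1 value for each condition and cell type. Conditions could therefore not be tested against each other, and no spread between replicates exists. A condition cannot be told apart from its islet preparation, and the labels name no other batch. Intervals below are exact 95% Poisson intervals of the counts and cover counting error only.

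Delta cells restrain their beta and alpha cell neighbours through secreted somatostatin. Cyclic AMP (cAMP) made by adenylyl cyclases activates protein kinase A (PKA), which phosphorylates the transcription factor CREB, and CREB binds the cAMP response element (CRE), first described in the somatostatin promoter. FSK bypasses the receptors that normally feed this pathway through the stimulatory G protein, so that every islet cell type is exposed to it, whereas Ex-4 acts through the GLP-1 receptor.

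The delta cell columns held 362410 (CON) and 427549 (FSK) counts in WT and 566358 and 631433 in Med14S983A. A single count was thus worth 0.0276, 0.0234, 0.0177 and 0.0158 counts per 10000 (CP10K), in the same order. The pools differed in their share of ribosomal RNA-linked and mitochondrial genes, 15 genes in all. This share was lowest in the FSK pools (2.19% in WT, 2.62% in Med14S983A) and in WT CON (3.48%), but came to 11.5% in Med14S983A CON, next to 9.13% and 14.4% in the Ex-4 pools of WT and Med14S983A. Its part in the differences between CON and FSK was not tested. The summed level of 9 delta cell markers was 25.7 CP10K in WT CON and 34.2 in WT FSK, and 12.4 and 24.9 in Med14S983A. It was thus higher after FSK in both genotypes, next to 1.31 to 2.17 in the beta columns. Ptprz1 moved most, from 12.7 to 19.4 in WT and from 4.94 to 14.1 in Med14S983A, followed by Sst. The markers did not rise as a group, since Casr and Crhr2 were lower in both genotypes and Spock3 was lower in WT (2.98 to 1.87). Sst was found at 2.87 to 6.10 CP10K in delta cells and at 0.13 or less in beta cells, whereas the delta cell marker Lepr was listed at 0 in all 4 delta columns. Markers of beta cells were also read in delta cells, at 17.6 and 8.07 CP10K in WT CON and FSK and at 10.8 and 10.5 in Med14S983A CON and FSK. Per gene, their median level in delta cells was 17.5% of the beta cell level in WT CON and 3.98% in WT FSK, against 18.9% and 8.26% in Med14S983A. Summed markers of endothelial, macrophage, mesenchymal, ductal and acinar cells did not exceed 0.317 CP10K in any of the 4 columns. The mesenchymal, ductal and acinar markers, however, were listed at 0 in every WT column, muscle and ductal cells included. Kdr, Cdh5 and Ptprc were likewise at 0 throughout WT FSK, endothelial cells and macrophages included. The WT sums of these genes therefore say nothing about the purity of the delta cell columns. Schwann cell markers (2 genes) were at 0.497 and 0.117 CP10K in WT CON and FSK and at 0.706 and 0.143 in Med14S983A, alpha cell markers at 2.20 to 4.03 and PP cell markers at 1.88 to 3.13.

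Of 9256 genes kept in delta cells, 227 (2.45%) were at least 1.5-fold higher and 216 (2.33%) at least 1.5-fold lower after FSK in WT. All differences are of log2(CP10K + 1), on which 1.5-fold is 0.58 and low levels need a larger ratio to pass. In Med14S983A delta cells 506 genes (5.47%) were higher and 226 (2.44%) lower. Of the WT calls 51.2% were on the higher side, and 36.8% when 0.1 was added to CP10K in place of 1. The higher share of the Med14S983A calls was 69.1% as deposited, but 52.5% with 0.1 added, 56.6% after the columns were rescaled without the ribosomal RNA-linked and mitochondrial genes and 55.5% after a trend with gene length was removed. In both genotypes 175 genes (1.89%) were higher and 66 (0.713%) were lower. The intervals of CON and FSK did not overlap in either genotype for any of them. At these depths the 1.5-fold threshold leaves almost no room for a call with overlapping intervals, so this adds nothing to the calls. The genes higher in both were 77.1% of those higher in WT and 34.6% of those higher in Med14S983A. For lower genes these shares were 30.6% and 29.2%. With the shared genes included, 222 of the 227 genes higher in WT were also above CON in Med14S983A, and 456 of the 506 the other way around. On the lower side 175 of 216 and 203 of 226 had the same sign in the other genotype. Across all kept genes the Pearson correlation of the differences of the genotypes was 0.62, which describes these 4 pools and takes genes that are not independent.

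**Figure D1:**
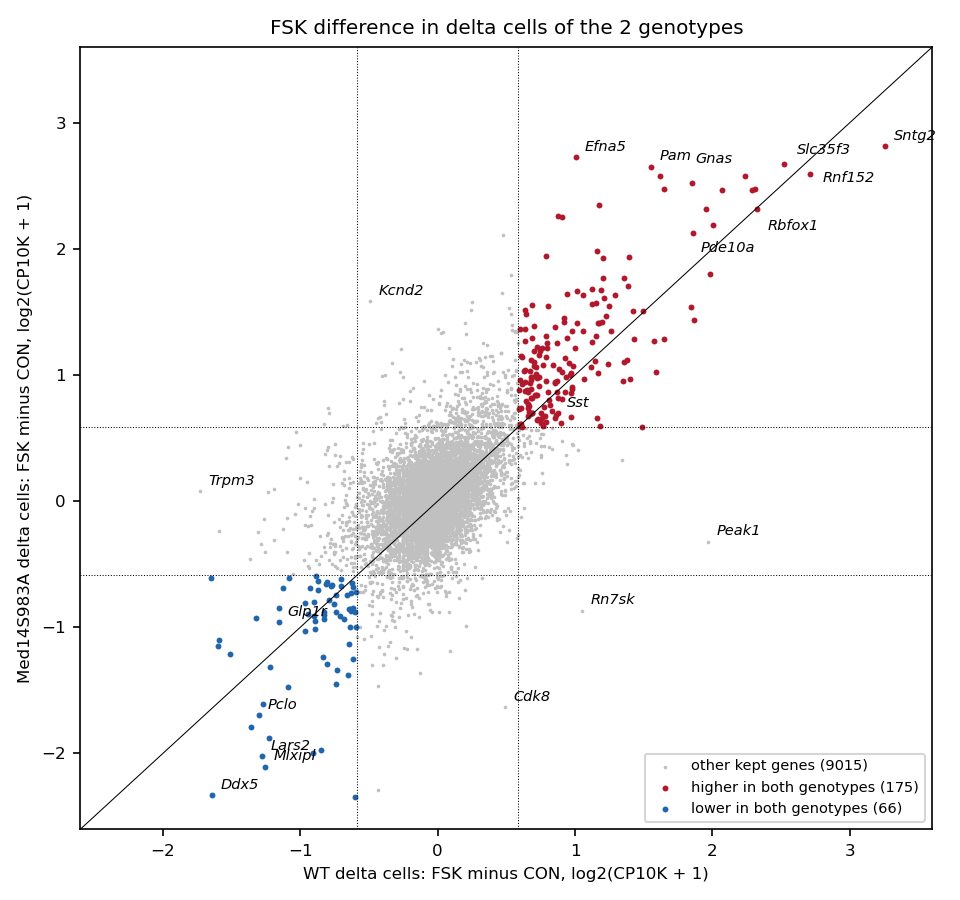
FSK minus CON on the log2(CP10K + 1) scale in WT (horizontal) and Med14S983A (vertical) delta cells for 9256 kept genes, with 1.5-fold dotted and equal change as a solid line. Genes higher in both genotypes (175, red) and lower in both (66, blue) run along the line, while Peak1, Cdk8 and Rn7sk lie below it and Kcnd2, Trpm3 and Efna5 above.

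Among the 175 genes higher in both genotypes the median level went from 1.55 CP10K in CON to 4.12 in FSK in WT, and from 0.900 to 3.45 in Med14S983A. In the Ex-4 pools the median of the same genes was 1.13 and 0.869 CP10K, close to CON and well under FSK. Their median difference was 0.87 in WT and 1.09 in Med14S983A, and the medians over all kept genes were -0.03 and 0.004. The 175 genes were chosen by these same differences, at 1.5-fold or more in both genotypes. Their rise from CON to FSK and their distance from all kept genes therefore follow from the choice and say nothing further. These genes were long, with a median of 152913 bases from first to last base of the gene over the 170 with a unique annotation, compared with 39557 over all kept genes. Nuclear RNA holds introns, and long genes give more counts in it. The 175 genes were also more abundant in WT CON than all kept genes, whose median was 0.359 CP10K. The part of level in this comparison of lengths was not tested.

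The hormone gene of the cell type was among them. Sst (chr16:23707321-23711733, minus strand, GRCm39; protein-coding) was found at 2.87 CP10K (2.34 to 3.48) in WT CON and 6.10 (5.39 to 6.89) in WT FSK. In Med14S983A it went from 2.95 (2.52 to 3.43) to 5.42 (4.86 to 6.02). Both FSK pools were thus above both CON pools, by 2.13-fold and 1.84-fold, and the Ex-4 pools (3.27 and 2.84) lay at the CON level. In beta cells, which do not make somatostatin, Sst stayed at or below 0.13 CP10K in all 4 pools. The summed delta cell markers given above, to which Sst and Hhex belong, were higher in the same pools. Ptprz1 moved most in that sum, and Casr and Crhr2 were lower, as was Spock3 in WT. The part of the markers in these values was not tested. The delta cell transcription factor Hhex went from 0.938 to 1.92 CP10K in WT, a difference of 0.59, and from 0.865 to 1.16 in Med14S983A, a difference of 0.21.

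Promoters of the genes that moved alike were searched for the CRE palindrome TGACGTCA and its half-site TGACG on either strand, which the palindrome also holds. Windows ran from 250 bases before to 50 bases after the RefSeq start sites, and a gene was counted when any of its starts held the motif. Of the genes higher in both genotypes 131 had such a window, and 3 of them (2.29%) held TGACGTCA. Of the genes lower in both, 48 had a window and 2 (4.17%) held it, next to 269 of the 7289 kept genes with a window (3.69%). TGACG was held by 32.1%, 31.3% and 37.1%, respectively. With GENCODE starts, the palindrome was found in 1.76%, 1.59% and 3.28% of the windows. For the higher genes both shares lay under those of all kept genes, no test was made, and sequence farther from the starts was not searched. The 30 bases around the palindrome are shown, in capitals and 5′ to 3′ on the strand of the gene, for the 3 higher genes and for Celf3, which was lower (the other lower gene was Cmss1). Rap1b, Errfi1 and Celf3 were picked for this motif. They lie at chr16:23709624-23709653 (minus strand) for Sst, chr10:117681903-117681932 (minus) for Rap1b, chr4:150939465-150939494 (plus) for Errfi1 and chr3:94391515-94391544 (plus) for Celf3, placed on GRCm39 by exact match of the RefSeq sequences.
Sst: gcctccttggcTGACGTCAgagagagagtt
Rap1b: ggctgaacgccTGACGTCAaggcgacaccg
Errfi1: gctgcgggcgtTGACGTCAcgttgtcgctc
Celf3: ggcagaagtgaTGACGTCAccacggtcgcc
In Sst the palindrome begins 48 bases before the RefSeq start, and in Rap1b, Errfi1 and Celf3 it begins 42, 51 and 108 bases before it. Celf3 has several RefSeq starts, and 108 is the distance to the nearest. Others lie 111 and 139 bases from the palindrome or have none in their window. Rap1b, a small GTPase, went from 1.30 to 2.97 CP10K in WT and from 0.848 to 2.57 in Med14S983A. Errfi1, an inhibitor of EGF receptor signaling, went from 0.359 to 1.10 and from 0.212 to 1.47, respectively. Both were also higher in beta cells of both genotypes, Rap1b by 0.87 and 1.20 and Errfi1 by 0.92 and 1.22, unlike Sst. Celf3, an RNA-binding protein, went down from 1.99 to 0.748 and from 3.05 to 1.55 CP10K.

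The listed components of the cAMP pathway were mostly not past the threshold, with 2 of 10 G protein alpha genes, 1 of 14 phosphodiesterases, 0 of 5 adenylyl cyclases and 0 of 14 PKA, PKI and EPAC genes higher in both genotypes, beside 1.89% of all kept genes. Gnas (chr2:174126022-174188537, plus strand), which encodes the stimulatory G protein alpha subunit, had the highest level of all genes of the set in WT FSK. It was found at 29.4 CP10K in WT CON, 142 in WT FSK, 18.3 in Med14S983A CON and 115 in Med14S983A FSK, so that the FSK pools were 4.85-fold and 6.25-fold above their controls. In beta cells Gnas went from 2.09 to 12.7 and from 3.15 to 15.8 CP10K, a similar ratio at a far lower level. In alpha cells it did not go up, with 25.3 and 20.0 CP10K in WT and 20.7 and 20.8 in Med14S983A. Gnasas1, the antisense RNA of the same locus, moved with it in delta cells, from 1.10 to 3.72 and from 0.671 to 3.45 CP10K. No source used here says if counting respected strand, so reads of this pair may not be separable. Gnaq, the alpha subunit that couples to phospholipase C, was higher as well, from 5.46 to 10.3 and from 2.54 to 9.36 CP10K. The other 8 of 10 kept G protein alpha genes did not pass in either genotype.

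Pde10a, a cAMP- and cGMP-degrading phosphodiesterase and a CREB target, had the highest level of the set in Med14S983A FSK. It went from 37.6 to 139 CP10K in WT and from 31.2 to 139 in Med14S983A, and the FSK values of the genotypes were alike. Among 14 kept phosphodiesterases it alone was past 1.5-fold higher in WT, whereas 7 were in Med14S983A. Pde3b and Pde4d, for example, differed by 0.28 and 0.17 in WT but by 1.10 and 1.09 in Med14S983A. Pde7b was lower in WT, from 5.60 to 1.66 CP10K. None of the 5 kept adenylyl cyclases was higher in both genotypes. Adcy6 was lower in both, from 1.43 to 0.561 and from 2.15 to 0.744 CP10K, while Adcy2 and Adcy8 passed as higher in Med14S983A, by 1.17 and 1.35, and were at 0.46 and 0.56 in WT. Of 14 kept PKA, PKI and EPAC genes only Prkar1a, the PKA regulatory subunit, passed, and it did so in WT (0.993 to 3.04 CP10K, a difference of 1.02) and not in Med14S983A (0.41).

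Of 25 genes listed as early cAMP responders 16 were kept in delta cells, of which 4 were higher and 1 was lower in WT, and 6 and 1 in Med14S983A. Their median difference was 0.17 in WT and 0.41 in Med14S983A. Pde10a, Irs2 and Sik1 were higher in both genotypes. Irs2, the insulin receptor substrate, went from 0.304 to 2.43 CP10K in WT and from 0.671 to 2.26 in Med14S983A. Sik1, the salt-inducible kinase that restrains CREB coactivators, went from 0.0828 to 0.842 (3 and 36 counts) and from 0.283 to 0.934. Its paralog Sik3 was also higher, by 0.63 and 0.88. Of the 11 kept CREB, CRTC and SIK genes these were the ones higher in both genotypes, with 2 higher in WT and 4 in Med14S983A. Ppargc1a, a coactivator, differed by 0.83 in WT and by 0.58 in Med14S983A, just under the threshold. The classical immediate responders were low at this time, with Nr4a1 at 0.238 CP10K or less and Fos at 0.0883 or less in all 4 pools, and Crem differed by 0.16 and 0.38.

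**Figure D2:**
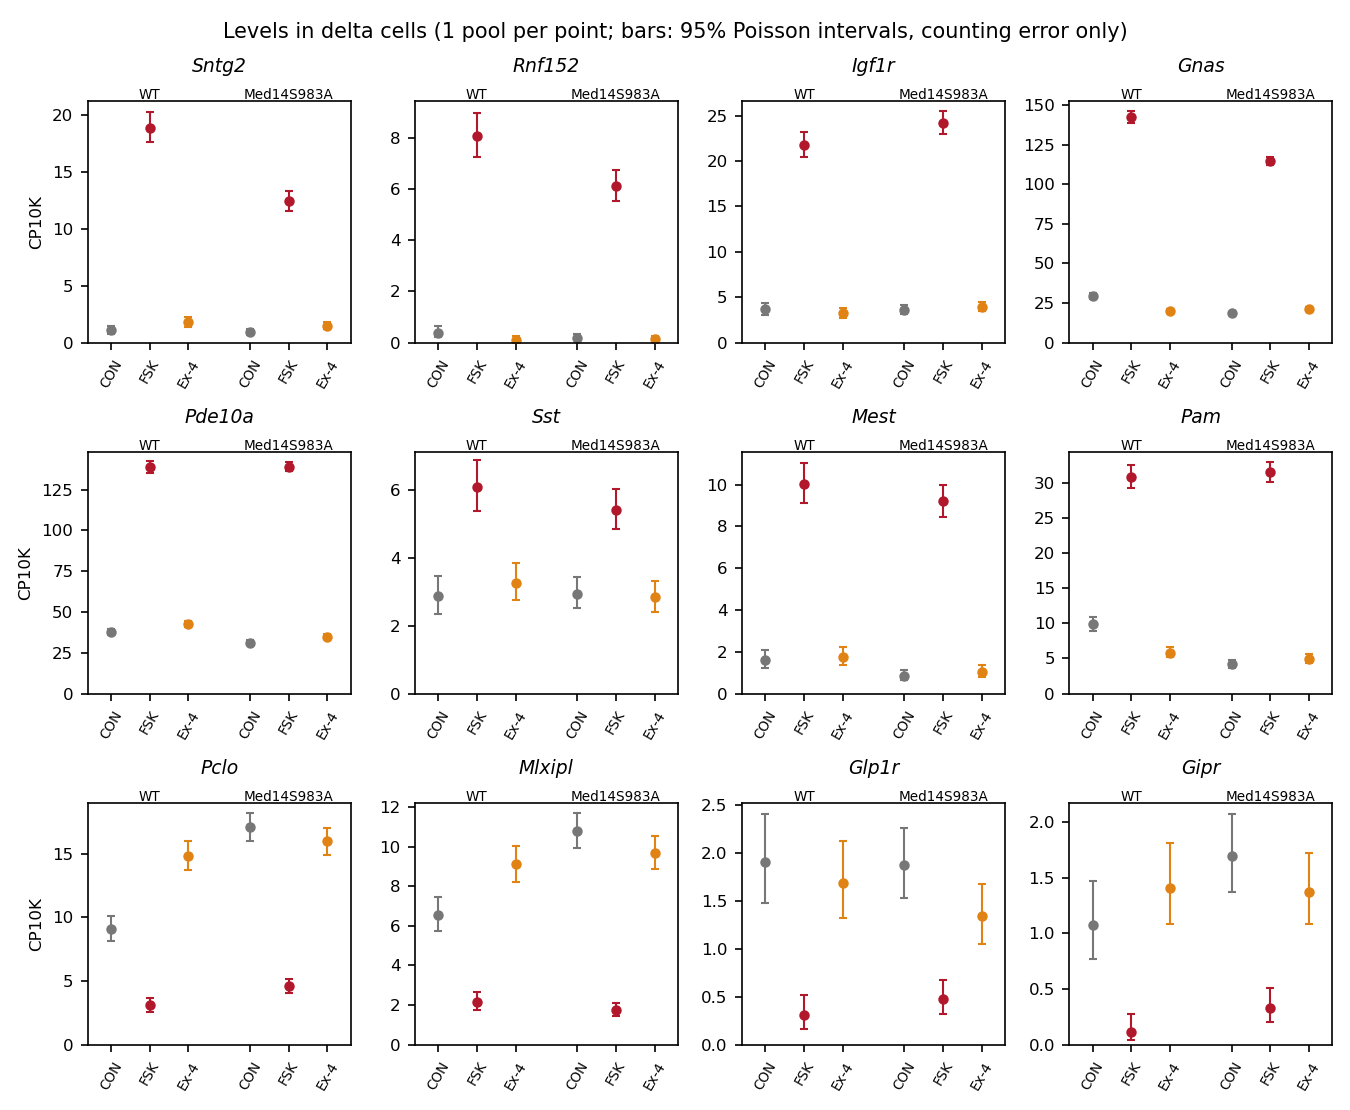
Levels in CP10K (vertical, from 0) of 12 genes in the 6 delta cell pools, with 95% Poisson intervals that cover counting error only. The FSK pools (red) stand above both CON (grey) and Ex-4 (orange) for the first 8 genes, such as Gnas at 142 and 115, and below them for Pclo, Mlxipl, Glp1r and Gipr.

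The largest difference shared by the genotypes was that of Sntg2 (chr12:30224480-30423411, minus strand), a syntrophin that links membrane proteins to the cytoskeleton. It was found at 1.08 CP10K (0.765 to 1.47) in WT CON and 18.9 (17.6 to 20.2) in WT FSK, and at 0.900 (0.670 to 1.18) and 12.4 (11.5 to 13.3) in Med14S983A. In beta cells Sntg2 reached 0.743 and 0.638 CP10K after FSK. Rnf152, a lysosomal ubiquitin ligase, went from 0.386 to 8.09 and from 0.177 to 6.11 CP10K, or 20.9-fold and 34.6-fold, and in beta cells from 0.103 to 1.80 and from 0.0675 to 2.01. Slc35f3, a putative thiamine transporter gene, reached 8.07 and 7.29 CP10K after FSK, with differences of 2.52 and 2.67. Rbfox1, a neuronal splicing factor, went from 1.71 to 12.6 and from 1.31 to 10.5. The alpha cell value of Rbfox1 went down in WT, from 6.51 to 1.97 CP10K, and up in Med14S983A, from 1.35 to 2.42.

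Igf1r, the insulin-like growth factor 1 receptor, was 5.94-fold and 6.79-fold higher, at 3.67 CP10K in WT CON, 21.8 in WT FSK, 3.57 in Med14S983A CON and 24.2 in Med14S983A FSK. It was one of 10 genes past 1.5-fold in both genotypes in delta, beta and alpha cells alike, together with Pde10a, Irs2, Dusp10, Pik3c2g, Gmds, Diras2, Septin9, Gm379 and Arhgap26.1. These 10 were named after their values were seen. Mest, an imprinted gene of the alpha/beta hydrolase fold, went from 1.63 to 10.0 CP10K and from 0.848 to 9.20 in delta cells, while it was at 0.0608 or less in all 4 beta cell pools. In alpha cells it was low but also above CON after FSK, at 0 and 0.148 CP10K in WT and 0.0123 and 0.433 in Med14S983A. Mest was one of 20 genes higher in both genotypes that were not kept in beta cells at all. Aldh1a3, a retinaldehyde dehydrogenase, and Ntf3, the neurotrophin-3 gene, both picked for this pattern, belonged to them too. Both were listed at 0 in the CON and Ex-4 pools of delta cells, and they reached 0.608 and 0.865 CP10K in WT FSK and 0.760 and 0.538 in Med14S983A FSK. They passed the delta cell filter only through the FSK pools. Some genes were listed at 0 in all columns of a condition, as Crhr2 was with Ex-4. Whether Aldh1a3 and Ntf3 were missing from the CON and Ex-4 conditions in that way was not tested.

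Genes of the secretory granule did not move in 1 direction. Of 32 kept genes of granules and exocytosis, 5 were higher and 4 lower in WT, 5 were higher and 3 lower in Med14S983A, and 2 were higher and 3 lower in both. Their median differences were 0.06 and 0.15. Pam, which amidates peptide hormones, went from 9.85 to 30.9 CP10K in WT and from 4.17 to 31.5 in Med14S983A, and Cpe, the carboxypeptidase that trims prohormones, reached 9.66 and 10.2, with differences of 0.76 and 1.21. Both were past 1.5-fold in beta cells of both genotypes as well. In delta cells the prohormone convertase Pcsk1 did not pass, at 0.441 and 0.281 CP10K in WT and 0.353 and 0.380 in Med14S983A, nor did Scg5, the chaperone of the convertase PC2, with differences of -0.55 and 0.14. The granins split, since Chga went down from 2.62 to 1.03 and from 5.97 to 1.96 CP10K, whereas Chgb and Scg2 were higher in WT, by 0.94 and 0.76, and differed by 0.30 and 0.14 in Med14S983A. Pclo, a scaffold of the release site, went from 9.08 to 3.09 and from 17.1 to 4.58 CP10K. Cadps, which primes granules for release, went from 4.83 to 1.75 and from 3.80 to 2.14.

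Of 16 kept receptor genes of delta cells 1 was higher and 4 were lower in WT, and 2 were higher and 2 lower in Med14S983A. Igf1r was higher and Glp1r and Gipr were lower in both genotypes. Glp1r, the GLP-1 receptor, went from 1.90 CP10K (1.48 to 2.41) to 0.304 (0.162 to 0.520) in WT and from 1.87 (1.53 to 2.26) to 0.475 (0.321 to 0.678) in Med14S983A. Gipr, the GIP receptor, went from 1.08 (0.765 to 1.47) to 0.117 (0.0380 to 0.273) and from 1.70 (1.37 to 2.07) to 0.333 (0.206 to 0.508). Both FSK pools lay under both CON pools for each gene. These receptors were more abundant in beta cells, where Glp1r went from 9.39 to 5.55 and from 7.34 to 5.27 CP10K. The delta cell level of Glp1r was 20.3% of the beta cell level in WT CON and 5.48% in WT FSK, and 25.5% and 9.02% in Med14S983A. The beta cell markers in delta cells moved in parallel (17.5% to 3.98% and 18.9% to 8.26%), and their part in the result was not tested.

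Transcription factors of the islet showed mixed values, with 2 of 24 kept genes higher and 4 lower in WT, and 3 and 2 in Med14S983A. Mlxipl, the carbohydrate response factor ChREBP, was lower in both, from 6.54 to 2.15 and from 10.8 to 1.74 CP10K, and it was lower in beta cells too, with differences of -1.69 and -2.13. Nkx2-2, a homeodomain factor of endocrine cells, was lower in delta cells, from 1.27 (0.929 to 1.69) to 0.281 (0.145 to 0.490) CP10K and from 2.08 (1.72 to 2.50) to 0.681 (0.493 to 0.917). In beta cells it was at 4.98 and 5.14 CP10K in WT and at 5.64 and 5.61 in Med14S983A.

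Of 18 kept clock genes 1 was higher and 7 were lower in WT and 2 were higher and 4 lower in Med14S983A, with median differences of -0.22 and -0.19. Over all kept genes 2.45% were higher and 2.33% lower in WT, and 5.47% and 2.44% in Med14S983A, against which each list is to be read. Npas2, a partner of the clock activator Arntl, was higher in both, from 1.41 to 3.16 and from 0.530 to 2.79 CP10K. The repressor Per2 was lower in both, from 1.52 to 0.351 and from 2.40 to 0.808, together with the output factor Tef, which differed by -0.78 and -0.67. Of 24 kept genes of protein folding and endoplasmic reticulum stress, only Ern1, the stress sensor IRE1, passed in both, with differences of 1.43 and 1.5. Dgkg was the only one of 8 kept diacylglycerol kinases past 1.5-fold, from 0.524 to 2.32 and from 0.583 to 2.80 CP10K, with larger differences in beta cells (2.25 and 2.30).

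Among 31 kept ion channel genes Cacna2d3, a calcium channel auxiliary subunit, and Kcnj6, an inwardly rectifying potassium channel, were higher in both genotypes. Cacna2d3 went from 11.5 to 20.6 and from 3.48 to 16.2 CP10K, and Kcnj6 from 3.20 to 5.33 and from 2.10 to 4.70. No channel was lower in both, though 5 were lower in WT. Of 39 kept genes of neuronal adhesion and axon guidance, Adgrl2, Sema3e and Efna5 were higher in both, 3 were higher and 5 lower in WT, and 9 were higher and 2 lower in Med14S983A. Efna5, an ephrin, went from 14.3 to 29.7 and from 2.86 to 24.6 CP10K. None of 37 kept ribosomal protein genes passed in either genotype, and of 32 kept respiratory chain genes 1 passed, as higher in Med14S983A. Both lists were low. All 84 ribosomal protein genes summed to 5.19 and 3.95 CP10K in WT CON and FSK and to 12.3 and 9.15 in Med14S983A. The 91 respiratory chain genes summed to 9.05 and 9.31 and to 10.7 and 12.9. Genes at such levels can hardly pass on this scale, so these counts say little about a response. Of 21 kept Mediator subunits only Cdk8, the kinase of the complex, passed, and only in Med14S983A.

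**Figure D3:**
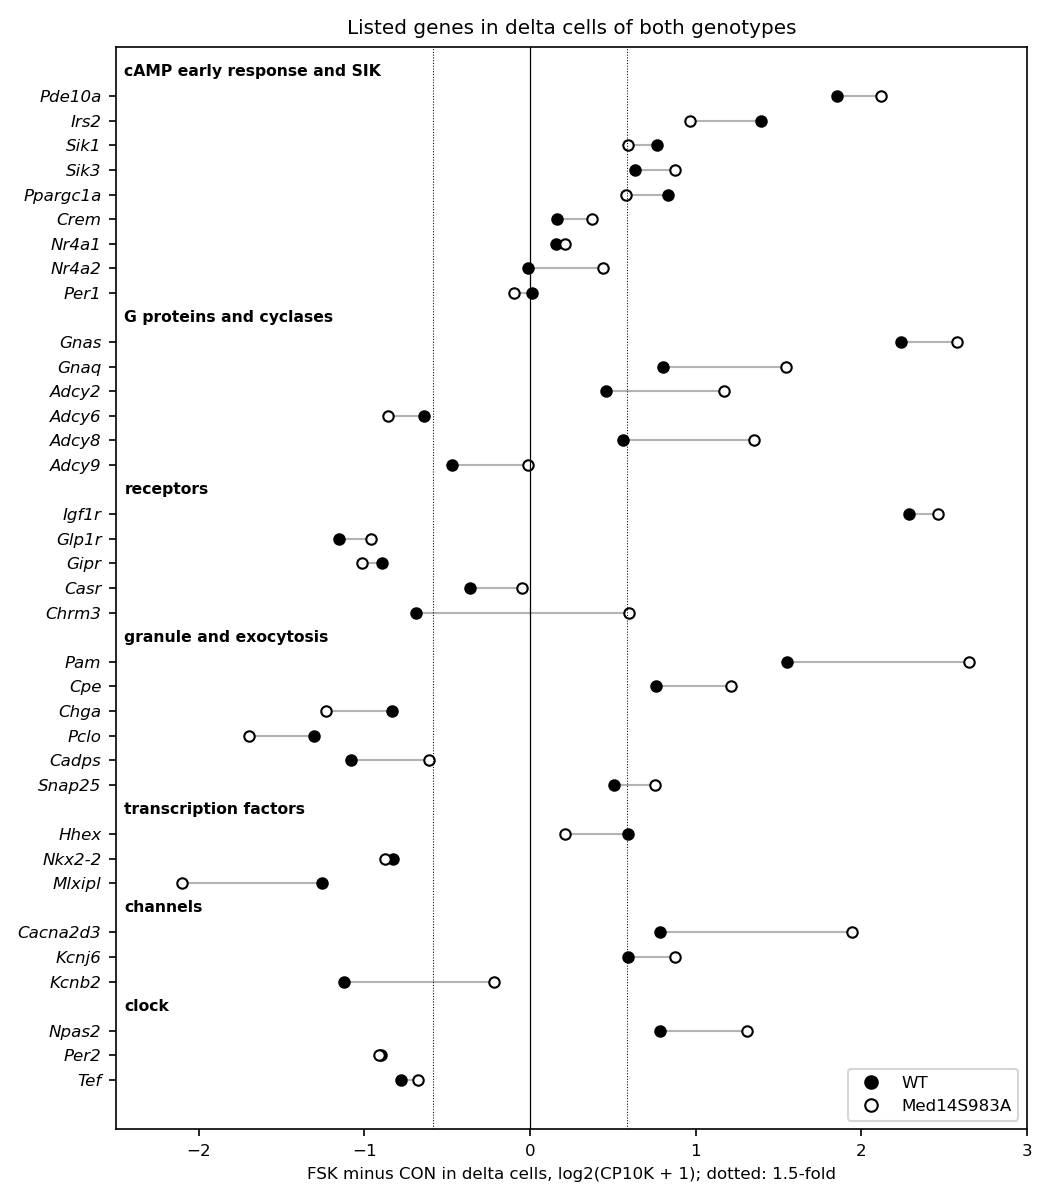
FSK minus CON in delta cells on the log2(CP10K + 1) scale for listed genes, with WT filled, Med14S983A open and 1.5-fold dotted. Pde10a, Gnas, Igf1r and Pam lie to the right in both genotypes, Glp1r, Gipr, Pclo and Mlxipl to the left in both, and Chrm3 on opposite sides (-0.69 and 0.60).

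The 66 genes lower in both genotypes had a median level of 2.35 CP10K in WT CON and 0.959 in WT FSK, and of 2.65 and 1.08 in Med14S983A. In the Ex-4 pools their median was 2.57 and 2.66. Several of the most abundant were genes of the ribosomal RNA-linked list or moved with it. Lars2, for example, was at 49.5 CP10K in WT CON and 19.9 in WT FSK, at 118 and 28.3 in Med14S983A, and at 118 and 156 in the Ex-4 pools, and its beta cell differences were -0.77 and -2.03. Cmss1, of the same list, and Gphn followed the same order of pools, and 7 of the 11 kept genes of that list were lower in both genotypes. Ddx5, an RNA helicase, had the largest shared difference, from 10.5 to 2.69 and from 21.2 to 3.40 CP10K. Vegfa, the vascular growth factor, went from 3.73 to 1.22 and from 7.89 to 2.20.

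Part of the lower genes was more abundant in beta than in delta cells. For 37 of the 66 genes the beta cell level was the higher in all 4 pools, as for Col6a6, a collagen gene (2.15 to 0.351 and 2.63 to 0.459 CP10K in delta cells), and for Ins2, Slc30a8, Chga, Pclo, Cadps, Glp1r, Gipr and Nkx2-2. This was not counted over all kept genes, so the 37 cannot be called a trait of the lower genes. Slc30a8, the granule zinc transporter, was at 17.6% of its beta cell level in WT CON delta cells and at 3.65% in WT FSK, and at 21.0% and 8.25% in Med14S983A. Ins2 shares near-identical sequence with Ins1, and its counts are uncertain for that reason. Other lower genes were more abundant in delta cells, among them Baiap3, which acts in dense core vesicle trafficking. It went from 4.91 to 1.31 and from 6.36 to 1.12 CP10K in delta cells, and from 1.29 to 0.120 and from 2.19 to 0.169 in beta cells. Wdr49 (4.77 to 1.03 and 3.14 to 0.792 CP10K) was likewise above its beta cell level in every pool. Gpr179, an orphan G protein-coupled receptor gene, had 31 counts in WT CON and 0 in WT FSK, and 58 and 3 in Med14S983A. In WT beta cells it was at 0.0896 CP10K in CON and also at 0 in FSK. Whether the gene was missing from the WT FSK condition was not tested.

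The FSK responses of delta and beta cells overlapped in part. In beta cells 1.52% of 10093 kept genes were higher and 0.723% lower in WT, and 5.12% and 2.7% in Med14S983A. Of the 175 genes higher in both genotypes in delta cells 155 were also kept in beta cells, where 36 passed in both genotypes, 44 in 1 and 75 in neither. These 36 were 26.5% of the 136 genes (1.35%) higher in both genotypes in beta cells and 20.6% of the 175. Of the 66 lower genes 14 were lower in both genotypes in beta cells, which is 53.8% of the 26 (0.258%) that were lower there. The median beta cell difference of the genes higher in delta cells was 0.28 in WT and 0.58 in Med14S983A. In alpha cells 1.34% of genes were higher and 1.17% lower in WT, 3.13% and 0.885% in Med14S983A, and 0.864% and 0.0738% in both. Of the genes higher in delta cells 158 were kept in alpha cells and 23 of them were higher there in both genotypes, and the median differences were 0.16 and 0.38. The Pearson correlation across genes between the delta and beta cell differences was 0.37 in WT and 0.67 in Med14S983A. Both cell types of a condition share the islet pool, so the 2 sets of differences are not independent.

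A gene was counted as unlike beta cells when it was past 1.5-fold in delta cells of both genotypes, past it in the same direction in beta cells of neither, and when the delta and beta differences were 1.5-fold apart in both genotypes. This held for 47 genes on the higher side (0.529% of the 8882 kept in both cell types) and 14 on the lower side (0.158%). Because 1 is added to the level, a gene that is scarce in beta cells can be counted here even if its ratio is alike. Sorcs1, a sorting receptor, is such a case. It went from 1.52 to 11.5 and from 0.795 to 8.95 CP10K in delta cells (7.58-fold and 11.3-fold), and in beta cells from 0.0365 to 0.378 and from 0.0779 to 0.408 (10.4-fold and 5.24-fold). Marchf11, a membrane ubiquitin ligase, reached 6.60 and 4.61 CP10K in delta cells and 0.165 and 0.208 in beta cells, with ratios of 6.83 and 37.3 in delta and 8.27 and 6.69 in beta cells.

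With 0.1 added in place of 1, 22 of the 47 genes still met the definition, among them Sst, Fbxl7, Cacna2d3, Pcdh15, App, Celf4, Magi2 and Inpp4b. Fbxl7, a subunit of a ubiquitin ligase, went from 1.66 to 8.58 and from 0.777 to 9.19 CP10K in delta cells, and in beta cells from 0.0697 to 0.0291 and from 0.0987 to 0.135. Pcdh15, a cadherin, went from 21.7 to 46.4 and from 10.1 to 33.5 in delta cells, whereas in beta cells it went from 4.67 to 2.98 and from 2.58 to 2.27. App, the amyloid precursor gene, picked after its values were seen, went from 4.99 to 10.7 and from 2.88 to 6.83 in delta cells and was flat in beta cells, at 0.823 and 0.643 in WT and 0.784 and 0.738 in Med14S983A. Inpp4b, a phosphoinositide phosphatase, moved apart most plainly at low levels. It went from 0.331 to 1.22 and from 0.194 to 1.66 CP10K in delta cells, while beta cells went from 0.770 to 0.181 and from 0.317 to 0.161.

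Zdhhc14, a palmitoyltransferase, combined a high level with a large difference. It went from 10.1 to 33.0 CP10K in WT and from 4.15 to 29.7 in Med14S983A delta cells, at beta cell differences of 0.15 and 0.41. It did not meet the definition with 0.1 added, and neither did Oxr1, an oxidation resistance gene, which went from 2.35 to 7.74 and from 1.06 to 5.70 CP10K in delta cells at beta cell differences of 0.21 and 0.39. All 47 genes had a higher level in delta than in beta cells in at least 1 of the 4 pools, and 41 had it in all 4. The definition favours genes scarce in beta cells, as said above, and the same was not counted over all kept genes. In alpha cells, 45 of the 47 were kept, and 4 of them were past 1.5-fold in both genotypes. Zdhhc14 was 1 of those 4, by 1.00 and 1.63, and so was Pcdh15, by 1.15 and 0.89.

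On the lower side, Col27a1 (chr4:63132241-63253228, plus strand), a fibrillar collagen gene, moved in opposite directions in the 2 cell types. In delta cells it went from 1.13 CP10K (0.812 to 1.53) to 0.351 (0.196 to 0.579) in WT and from 1.71 (1.39 to 2.09) to 0.618 (0.439 to 0.844) in Med14S983A. In beta cells it went from 0.342 to 1.87 and from 0.831 to 2.10 CP10K. Col27a1 was the only gene past 1.5-fold in opposite directions in delta and beta cells of both genotypes. Erich3 was lower in delta cells (0.938 to 0.211 and 1.82 to 0.475 CP10K) and had higher values in beta cells (1.78 to 3.46 and 2.38 to 3.16). For 12 of the 14 genes, Nkx2-2, Cadps, Ankrd44, Slc43a2 and Scnn1b included, the beta cell level was the higher in all 4 pools, which was not counted over all kept genes. The median delta cell level of the 14 was 56.1% of that in beta cells in WT CON and 12.6% in WT FSK, and 64.4% and 24.0% in Med14S983A. The definition nearly fixes such a drop, so it says nothing further about these genes. The beta cell marker share given above was lower after FSK as well, and its part was not tested.

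**Figure D4:**
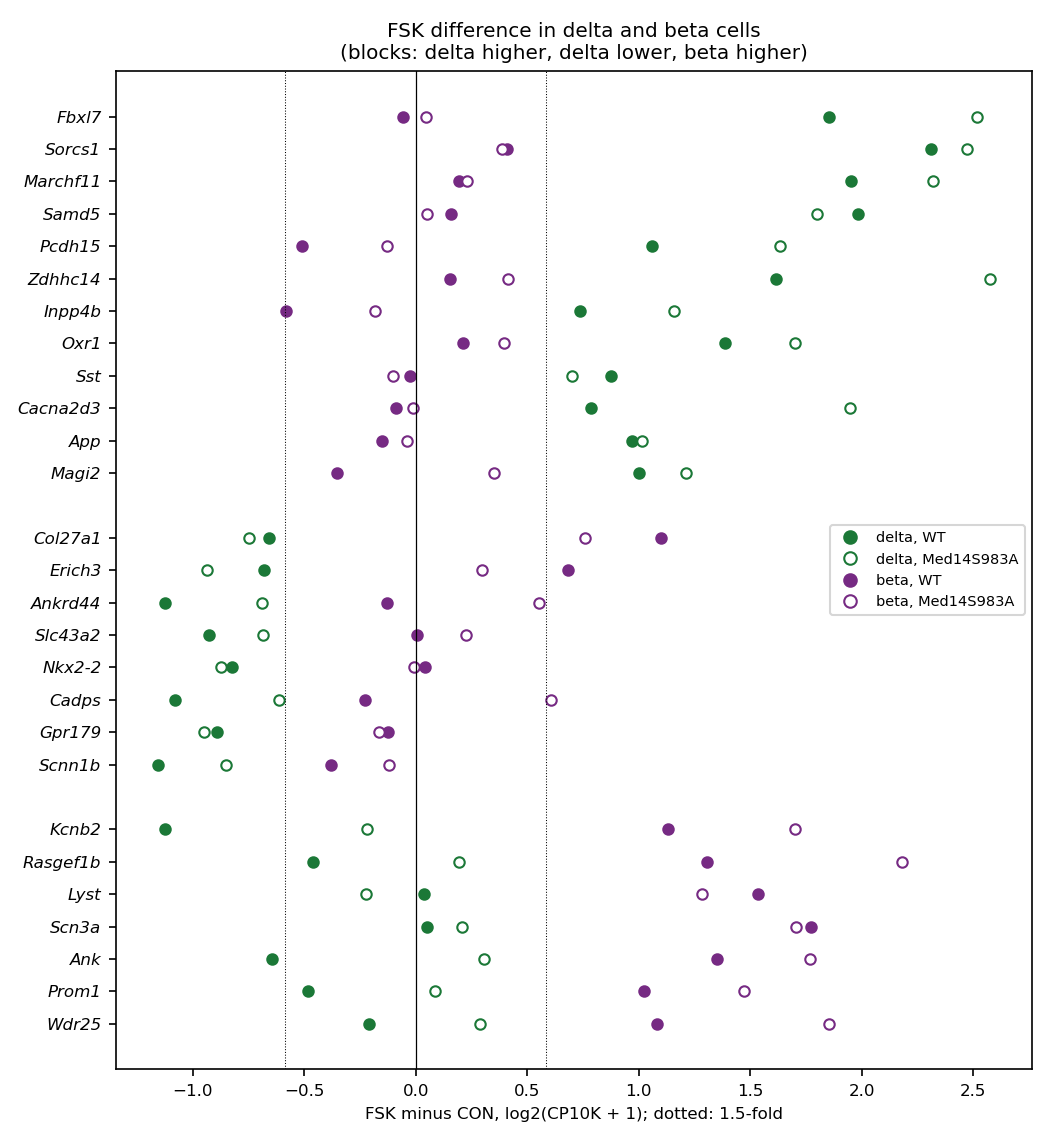
FSK minus CON on the log2(CP10K + 1) scale in delta (green) and beta (purple) cells of WT (filled) and Med14S983A (open), for genes unlike beta cells on the higher and lower side and for genes higher in beta and unlike delta cells, with 1.5-fold dotted. Col27a1 lies left of 0 in delta cells and right of it in beta cells, and Sst, Fbxl7 and Pcdh15 lie right in delta but not in beta cells.

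By the same definition 58 genes (0.653%) were higher in beta cells and unlike delta cells, and 2 (0.0225%) were lower. Kcnb2, a delayed rectifier potassium channel, went from 6.86 to 16.2 and from 3.50 to 13.6 CP10K in beta cells, while in delta cells it went down in WT from 19.9 to 8.58 and was at 7.24 and 6.08 in Med14S983A. Scn3a, a sodium channel, went from 0.750 to 4.98 and from 0.732 to 4.65 in beta cells, which brought it to the delta cell level. That level was 4.75 and 4.96 in WT and 3.07 and 3.71 in Med14S983A. Rasgef1b, a guanine nucleotide exchange factor, went from 6.31 to 17.1 and from 2.47 to 14.7 in beta cells at delta cell differences of -0.46 and 0.19. The 2 genes lower in beta and unlike delta cells were Zim1, an imprinted zinc finger gene, and Itpr1, the type 1 inositol trisphosphate receptor. Itpr1 was at 22.3 and 19.7 CP10K in WT delta cells and 12.8 and 12.8 in Med14S983A, but went from 4.38 to 1.63 and from 3.38 to 1.32 in beta cells.

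The size of the FSK difference diverged by 1.5-fold or more between genotypes for 461 genes, 342 (3.69%) more positive and 119 (1.29%) more negative in Med14S983A. Most of this lay in the CON pools. Against WT CON, 210 genes (2.27%) were higher and 443 (4.79%) lower in Med14S983A CON, whereas between the FSK pools of the genotypes 13 (0.14%) were higher and 25 (0.27%) lower. For 326 of the 342 genes the gap between the CON pools exceeded that between the FSK pools, as it did for 6020 of all 9256 kept genes. Their median level was 2.98 CP10K in WT CON and 1.17 in Med14S983A CON, but 2.36 and 2.30 in the FSK pools and 1.53 and 1.14 in the Ex-4 pools. Their median length was 242773 bases, and the median of the 119 more negative genes was 37685.

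Ion channel genes were among those with the largest divergence. Kcnd2, a transient potassium channel, was at 24.0 CP10K in WT CON and 16.7 in WT FSK, and at 4.04 and 14.1 in Med14S983A, with Ex-4 values of 5.56 and 3.51. Trpm3, a cation channel, was at 32.3 in WT CON and between 7.33 and 11.2 in the other 5 pools. Fgf14, an intracellular modulator of sodium channels, went down in WT from 35.9 to 20.3 and up in Med14S983A from 8.90 to 15.1, next to 8.78 and 8.14 with Ex-4. In all 3 genes the WT CON pool had the highest value. The share of ribosomal RNA-linked and mitochondrial genes was lowest in WT CON and the FSK pools, and its part in these differences was not tested.

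Peak1 (chr9:56108410-56325566, minus strand), a pseudokinase of the cytoskeleton, had another form. It was at 0.469 CP10K (0.273 to 0.751) in WT CON and 4.75 (4.12 to 5.45) in WT FSK, but at 0.883 (0.655 to 1.16) and 0.507 (0.347 to 0.715) in Med14S983A. The Ex-4 pools had 0.347 and 0.525, so WT FSK alone stood apart. The same was read in beta cells, where Peak1 went from 0.508 to 5.17 in WT and from 0.649 to 0.252 in Med14S983A, and in alpha cells (0.429 to 8.43 and 0.728 to 0.458). Rn7sk, the 7SK small nuclear RNA, went from 1.30 to 3.77 in WT and from 2.65 to 0.998 in Med14S983A. The study names Peak1 among genes of FSK induction through Med14 in beta cells of these same islets, so its direction is not independent evidence. Most of that list did not follow Peak1 in delta cells. Of its 15 genes 11 were kept, of which 2 were higher in WT and 1 was lower in Med14S983A. Their median differences were 0.08 and -0.06, and over all kept genes 2.45% were higher in WT and 2.44% lower in Med14S983A. Cdk8 was at 20.6 and 29.2 CP10K in WT CON and FSK, at 89.1 and 28.1 in Med14S983A, and at 45.9 and 65.0 with Ex-4. Cdk8 and Rn7sk stood on the list of ribosomal RNA-linked genes, whose share of counts was 3.48% and 2.19% in WT and 11.5% and 2.62% in Med14S983A. Of these 4 pools Cdk8 was highest where the share was highest, whereas Rn7sk was highest in WT FSK, where the share was lowest. Med14 itself was low, at 0.717 and 0.187 CP10K in WT and 0.388 and 0.697 in Med14S983A, and since the knock-in is a codon substitution, its level is no check of the labels.

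**Figure D5:**
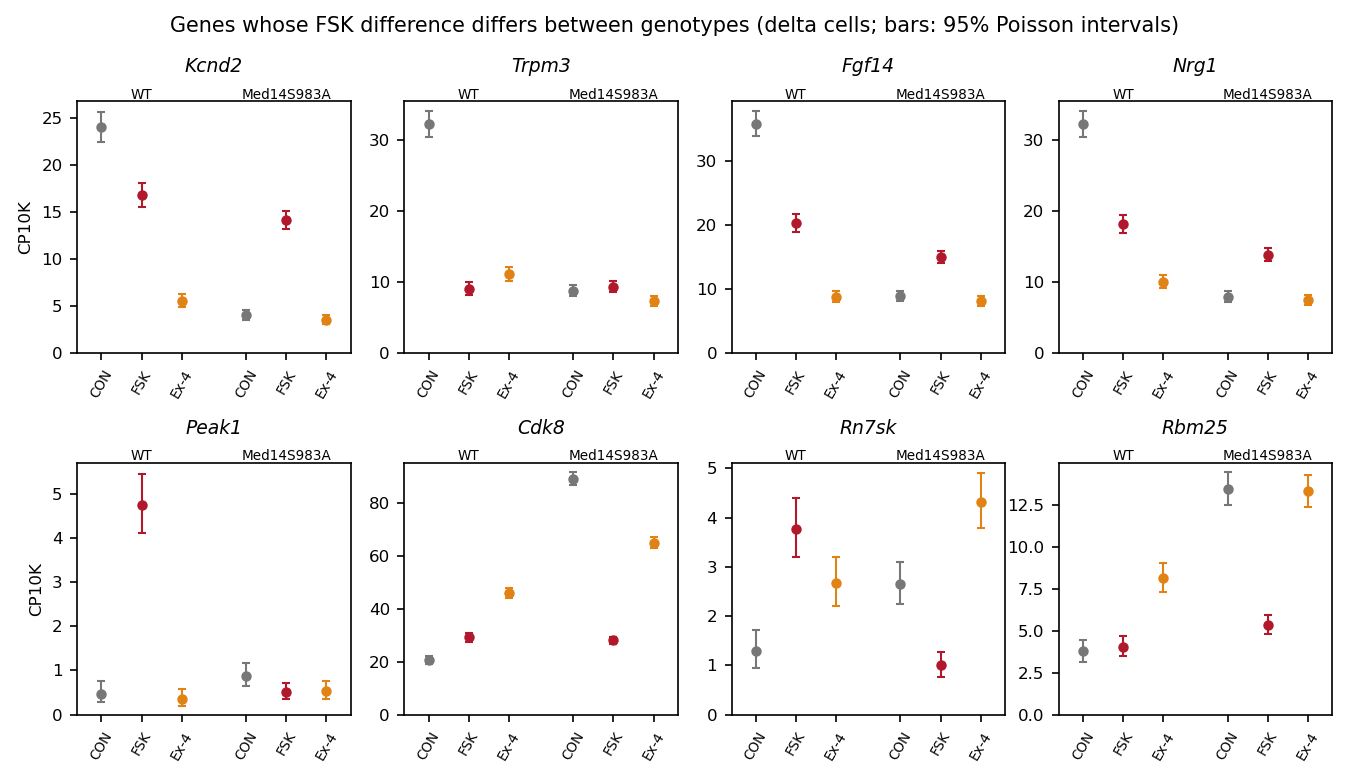
Levels in CP10K (vertical, from 0) in the 6 delta cell pools of 8 genes whose FSK difference diverged between genotypes, with 95% Poisson intervals. Kcnd2, Trpm3, Fgf14 and Nrg1 are highest in WT CON, Peak1 stands out in WT FSK alone (4.75), and Cdk8 and Rbm25 are highest in Med14S983A CON.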

How the data were processed

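Islet nuclei were profiled by combinatorial barcoding, and the authors aligned reads to mm39, filtered nuclei by count, gene number and mitochondrial content, then normalized, integrated and annotated them. Whether counts were corrected before pooling, the annotation release and the strand setting are not given in the sources used here. The authors deposited natural log values, ln(1 + 10000 × count / column total), for 17362 genes in 54 columns. Column totals were recovered from the steps between low values, and 100% of the values then lay within 0.001 of whole counts (largest distance 6.39e-05). A gene passed the filter of a cell type when its mean over the 6 conditions lay at or above the 40th percentile. Differences are FSK minus CON of log2(CP10K + 1), called at 1.5-fold. With 1 pool per condition no test was run. Poisson intervals (95%) cover counting error only. Named genes had the largest size of the smaller of their differences in both genotypes, beside gene lists, and other genes are said to be picked. Genes and lists were chosen with earlier results of these data known. Gene positions are from GENCODE M39 (GRCm39). The procedure was checked on simulated data. Python 3.11.15, numpy 2.4.6, pandas 2.3.3 and scipy 1.17.1 were used.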

Additional observations from a re-analysis of the deposited data

Results flagged for a closer look

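In 6 genes the FSK difference was past 1.5-fold in opposite directions in WT and Med14S983A delta cells, and the difference between genotypes was not tested, since each value is 1 pool. It came to 1.49 for Fgf14, 1.44 for Sgcz, 1.29 for Chrm3, 1.54 for Nrg1 and 1.26 for Gm20754, all lower in WT and higher in Med14S983A. For these 5 genes WT CON had the highest level of the 6 pools, as for Chrm3, the muscarinic M3 receptor, at 6.35 CP10K in WT CON, 3.56 in WT FSK, 3.37 in Med14S983A CON and 5.62 in Med14S983A FSK. Rn7sk went the other way, at -1.92. Col27a1 was past 1.5-fold in opposite directions in delta and beta cells, with delta minus beta differences of -1.76 in WT and -1.51 in Med14S983A, and this was not tested either.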

How the results depend on the processing

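No named gene changed direction under the alternatives in which it had a value, but the balance of calls did. The values of named genes were not all stable. With 0.1 added, 59 of the 126 entries were flagged as moved and 67 as the same. These numbers were 8 and 112 with the length trend removed. After rescaling without the ribosomal RNA-linked and mitochondrial genes they were 3 and 111. The remaining entries had no value with the length trend removed or after this rescaling, so they were not assessed there. With 0.1 in place of 1 added to CP10K, 1177 genes were higher and 2022 lower in WT, 1945 and 1759 in Med14S983A and 634 and 803 in both, 137 and 123 were unlike beta cells, and 100 and 70 were higher and lower in beta cells and unlike delta cells. Lower calls thus outnumbered higher ones in WT and in both genotypes, unlike with 1 added, and 22 of the 47 and 13 of the 14 genes unlike beta cells remained. At 2-fold, 66 genes were higher and 38 lower in WT, 158 and 47 in Med14S983A and 56 and 12 in both, 14 and 1 were unlike beta cells, and 16 were higher in beta and unlike delta cells. Only 10 of the 47 higher and 0 of the 14 lower genes unlike beta cells were among these. A filter at the 75th percentile left 22 genes higher and unlike beta cells and 36 the other way. Removing a trend with gene length gave 337 higher genes in Med14S983A and 4 lower in beta and unlike delta cells. The correlation of the genotypes ranged from 0.53 to 0.66, and that with beta cells from 0.32 to 0.39 in WT and from 0.62 to 0.72 in Med14S983A. Thinned to the shallowest delta column, 161 of the 175 and 57 of the 66 shared calls remained, and 31 of the 47 and 8 of the 14 genes unlike beta cells. No paired analysis was possible because each condition is 1 pool, and no replicate could be left out. Depth limited genes at a few counts, such as Sik1 with 3 counts in WT CON, and the 1 pool per condition limits all comparisons.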
